A study of Homo sapiens with 60 samples.

Results

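SW1783 is an established human astrocytoma cell line, and the genes described here are 41 genes of its lysosomes and of autophagy. They were taken by symbol, as a list of names, from a table of 60675 genes, and all 41 were found. The list was chosen with earlier results of these data known. The list holds 3 transcription factors of the TFEB family, 5 regulators of nutrient sensing at the lysosome, 5 lysosomal membrane proteins, 16 enzymes and carriers of the lysosomal lumen, 5 subunits of the lysosomal proton pump and 7 autophagy genes. All 41 passed the filter on low counts that was applied to the whole table, which kept 17516 genes. RNA was sequenced after 24 h with the vehicle, given as 0.1% DMSO in the sample labels, or with a water extract of a tonifying herbal medicine. The single plants were Cinnamomi Cortex (Cinnamon below), Astragali Radix (Astragalus), Cnidii Rhizoma (Cnidium), Rehmanniae Radix Preparata (Rehmannia), Angelicae Gigantis Radix (Angelica) and Paeoniae Radix (Paeonia), and the formulas were Sagunja-tang and Samul-tang (Sagunja and Samul). Every extract was given at a high (500 µg/mL), a medium (100 µg/mL) and a low dose (20 µg/mL). There were 60 libraries in 25 groups, with 3 libraries for the vehicle and for each dose of Cinnamon, Astragalus, Cnidium, Rehmannia and Sagunja, 2 for each dose of Samul, and 1 for each dose of Angelica and Paeonia.

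The lysosome is the acidic compartment in which cells break down proteins, lipids and sugar chains, and autophagy is the process that wraps parts of the cytoplasm in membrane and delivers them to it. The transcription factors TFEB, TFE3 and MITF switch on genes of both systems by binding a DNA element built on the letters CACGTG. They are held in the cytoplasm when the kinase mTORC1 is active on the lysosomal surface, where RRAGC and RRAGD, 2 small GTPases, bring the kinase and its substrates together, and where FLCN with its partners FNIP1 and FNIP2 acts on those GTPases. In tumour cells of glial origin autophagy is known as a source of recycled nutrients under stress.

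Levels below are CPM, the counts of a gene scaled to the same library total and by a factor per library, and changes are log2 fold changes with a standard error (SE) whose spread was estimated over all replicated groups. A gene was called at a Benjamini-Hochberg adjusted p under 0.05 in edgeR's quasi-likelihood test among 17516 genes. Nothing in the labels ties replicates to separate cultures, and the p-values then reflect only how far these libraries differ, which may be technical. Library totals ran from 20604792 to 29609799 expected counts. Among the 10 astrocyte and glioma markers GFAP, S100B, AQP4 and ALDH1L1 were below 1 CPM in every library. VIM lay between 4659 and 6032 CPM, CD44 between 1996 and 3004 CPM and EGFR between 101.8 and 375.5 CPM. SOX9 lay at 43.7 to 90.86, SLC1A3 at 11.64 to 28.71 and NES at 4.222 to 9.084 CPM. Of the 7 macrophage and microglia markers AIF1, TYROBP, CX3CR1 and CD14 were below 1 CPM in every library, while PTPRC lay at 3.99 to 12.6, CSF1R at 1.69 to 3.75 and CD68 at 89.3 to 229 CPM. Below 1 CPM in every library were also 5 of 6 melanocyte markers. The library labelled Sagunja low replicate 1 stood apart: the median absolute log2 deviation of its genes from the group mean was 0.371, against at most 0.0906 in libraries of other groups. Its spread enters the estimate that all comparisons share, so counts of called members that differ by more than 1.5 times without it are given both ways. All library titles carry the label BatchB. All vehicle libraries carry a sample code of their own in the labels (B1), and each extract carries a set code shared with other extracts. What these codes stand for is not stated in the labels. A difference between sets or solvents and a difference between vehicle and extract thus cannot be told apart. In such bulk libraries, fewer cells holding an RNA and less of that RNA per cell cannot be told apart either.

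The CACGTG letters were looked up in the promoters of the members, because they are the core of the element that the TFEB family binds. RefSeq promoters on GRCh38.p14 were found for 31 of the 41 genes, with 37 listed starts. Of these genes, 10 (32.3%) had CACGTG within the 250 bases before a start, against 7.73% of the 27305 genes in the promoter table. The longer TCACGTGA, which contains it, stood in 5 of 31 members (16.1%) and in 1.04% of all genes. Both words read the same on either strand. No promoter was found for ARSA, ATP6V1A, ATP6V1C1, ATP6V1H, CTSB, HEXA, LAMP2, PSAP, RRAGD and UVRAG. The sequences below show 4 members whose RNA was higher with Cinnamon high than with vehicle (NEU1, MCOLN1, LAMP1 and RRAGC) and 2 that hold the same letters and were not called there (ATP6V0D1 and GAA). Capitals mark CACGTG with a T before it or an A after it where present.
NEU1, chr6:31862822-31863071, minus strand: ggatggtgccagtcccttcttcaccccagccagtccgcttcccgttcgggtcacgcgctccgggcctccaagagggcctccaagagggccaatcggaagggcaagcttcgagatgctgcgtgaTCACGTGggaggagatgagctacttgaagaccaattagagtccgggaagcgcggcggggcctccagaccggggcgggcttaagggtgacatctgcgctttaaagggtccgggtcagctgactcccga
MCOLN1, chr19:7522374-7522623, plus strand: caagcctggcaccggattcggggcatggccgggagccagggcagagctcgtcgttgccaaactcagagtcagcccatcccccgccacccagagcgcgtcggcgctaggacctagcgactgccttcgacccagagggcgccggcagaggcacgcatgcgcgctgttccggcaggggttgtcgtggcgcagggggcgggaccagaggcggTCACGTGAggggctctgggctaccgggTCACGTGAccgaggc
LAMP1, chr13:113296989-113297238, plus strand: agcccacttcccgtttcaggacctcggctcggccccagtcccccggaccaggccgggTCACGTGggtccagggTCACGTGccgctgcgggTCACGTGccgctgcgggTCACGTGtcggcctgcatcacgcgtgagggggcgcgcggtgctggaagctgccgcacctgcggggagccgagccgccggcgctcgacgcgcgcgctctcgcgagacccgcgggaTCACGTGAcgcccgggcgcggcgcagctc
RRAGC, chr1:38859773-38860022, minus strand: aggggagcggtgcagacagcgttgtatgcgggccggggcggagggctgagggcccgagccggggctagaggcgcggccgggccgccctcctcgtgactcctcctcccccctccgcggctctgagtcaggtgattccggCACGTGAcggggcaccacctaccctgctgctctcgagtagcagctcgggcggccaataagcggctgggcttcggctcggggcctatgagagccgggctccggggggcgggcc
ATP6V0D1, chr16:67481158-67481407, minus strand: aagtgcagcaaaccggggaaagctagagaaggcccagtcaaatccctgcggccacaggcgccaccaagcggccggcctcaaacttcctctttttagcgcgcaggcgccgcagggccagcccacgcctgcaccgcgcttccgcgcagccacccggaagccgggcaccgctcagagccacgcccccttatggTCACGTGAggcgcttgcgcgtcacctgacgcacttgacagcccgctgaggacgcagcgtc
GAA, chr17:80101331-80101580, plus strand: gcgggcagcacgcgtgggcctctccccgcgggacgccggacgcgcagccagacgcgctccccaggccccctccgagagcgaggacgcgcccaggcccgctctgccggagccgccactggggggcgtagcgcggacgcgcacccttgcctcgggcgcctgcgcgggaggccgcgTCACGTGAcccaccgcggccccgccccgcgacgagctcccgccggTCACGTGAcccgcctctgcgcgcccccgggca
LAMP1 held the letters 5 times, at 192 to 28 bases before its start, and MCOLN1, GAA, CTSA, CTSF and FNIP1 held them 2 times each. They were also found once each in ATP6V0D1, CTSD, NEU1 and RRAGC. Among the 15 matched members called higher with Cinnamon high than with vehicle, 5 held CACGTG, and among the other 16 matched members 5 did. Such matches describe these letters in this window and say nothing on binding. The members were listed as genes of systems that the TFEB family switches on, so their excess over all genes is no independent result.

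In the vehicle libraries the members spanned a wide range of levels per exon length. PSAP, the precursor of the activators of sphingolipid breakdown, was highest at 160.5 CPM per kb of exon. It was followed by the aspartic protease CTSD at 89.98, the autophagosome protein GABARAP at 87.8 and the membrane glycoprotein LAMP1 at 85.4 CPM per kb. Of the transcription factors TFE3 reached 36.6, MITF 4.15 and TFEB 1.85 CPM per kb. RRAGD was lowest at 0.0859 CPM per kb.

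More members changed with Cinnamon high than with any other extract and dose, and all calls were upward. Of the 41 members 22 were higher and 0 lower, where 22.8% of all genes tested were called in either direction and 11.8% were called higher. The median log2 change of the members was 0.26, against 0.005 for all 17516 genes, and 39 of 41 lay above 0. For 31 members the 3 treated and the 3 vehicle libraries did not overlap, as for 46.7% of all genes. By role, the called members were 3 of 5 nutrient-sensing regulators, 4 of 5 membrane proteins, 10 of 16 lumenal enzymes and carriers, 3 of 5 pump subunits, 2 of 7 autophagy genes and 0 of 3 transcription factors. Without Sagunja low replicate 1 the counts were 30 higher and 1 lower, where 35.9% of all genes were called, and the median was 0.25. With only these 2 groups in the fit they were 29 and 1, where 38.9% of all genes were called.

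**Figure D1:**
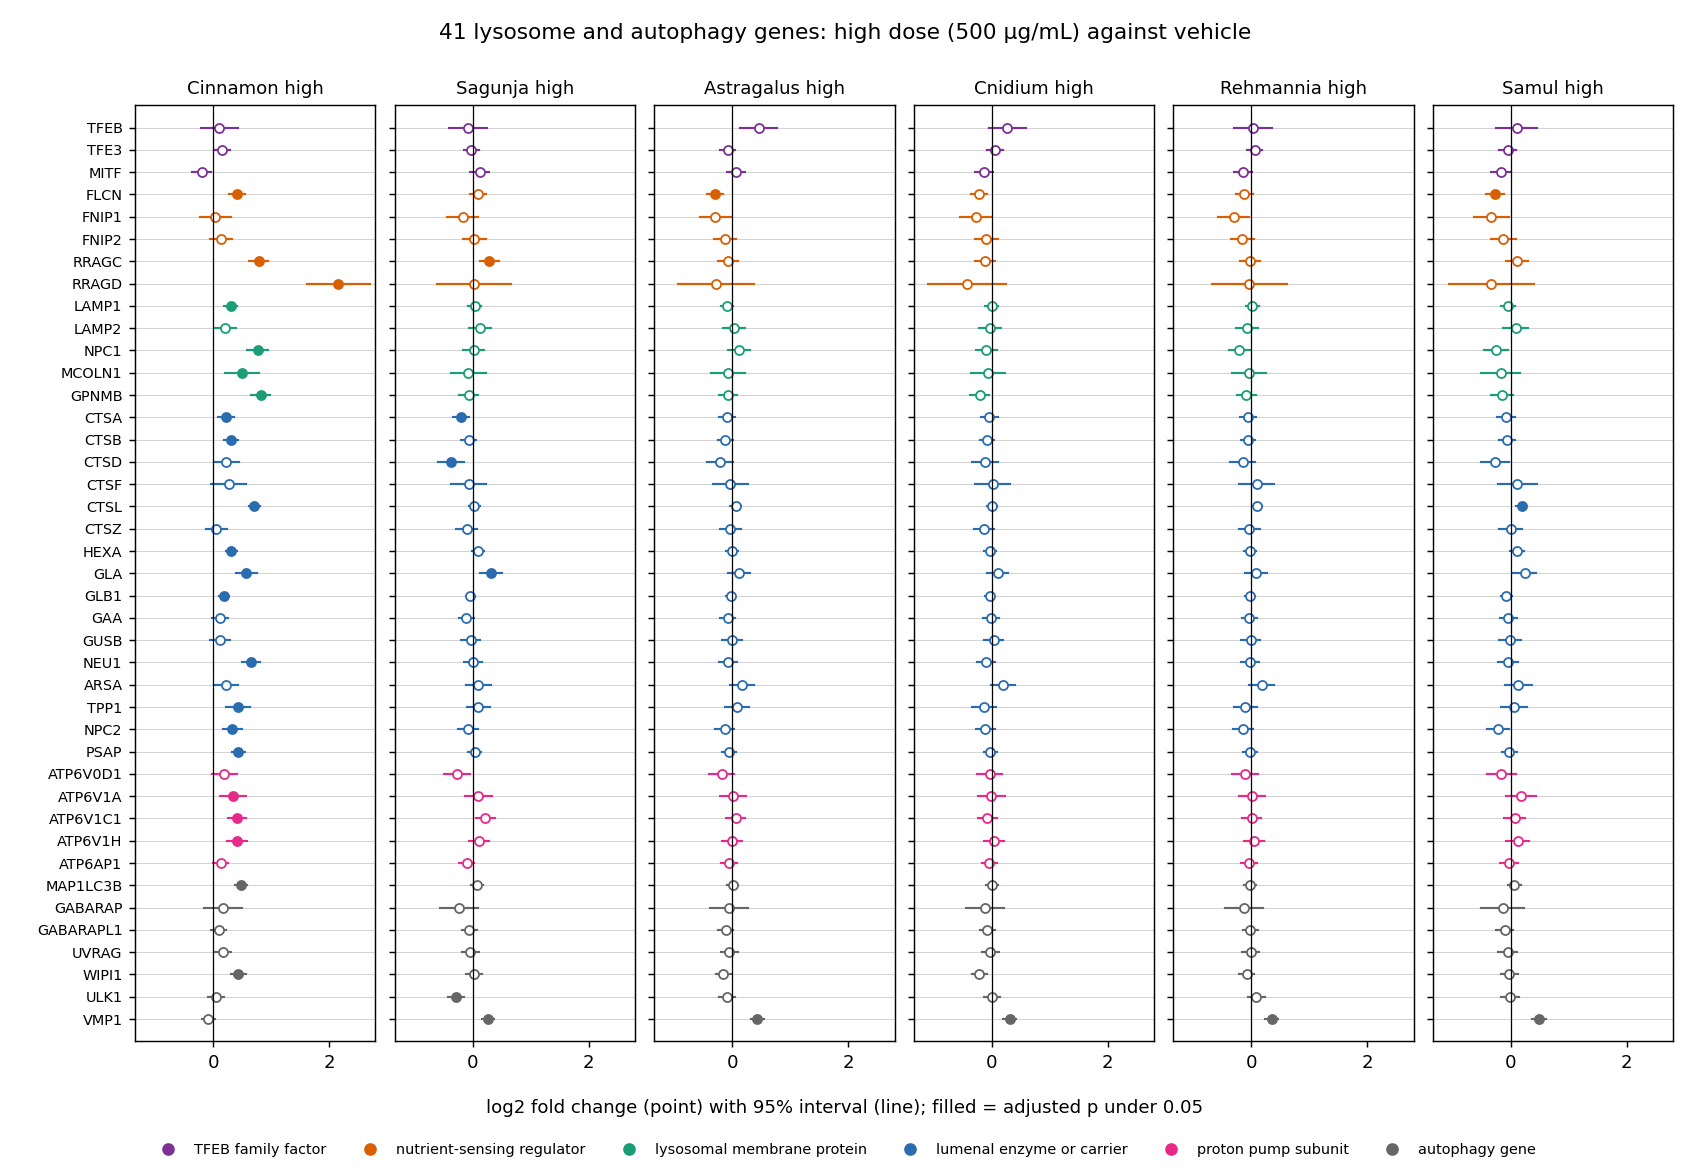
Log2 fold change of each of the 41 genes at the high dose (500 µg/mL) against vehicle (x axis) for 6 extracts, with points coloured by role, filled where the adjusted p was under 0.05, and lines for the 95% interval. In the Cinnamon panel 22 points are filled and all of these lie right of 0, while in the other 5 panels between 1 and 6 points are filled.

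In the fit with all replicated groups and libraries, the TFEB family itself was not called with Cinnamon high. Without Sagunja low replicate 1 there were 30 members called higher and 1 lower. Whether these include a gene of the TFEB family is not given here. TFEB was at 11.99, 10.29 and 11.04 CPM with Cinnamon high and at 10.45, 10.25 and 10.65 CPM with vehicle, so the groups overlapped. TFE3 was at 173, 174 and 169 CPM against 156, 153 and 162 CPM, with no overlap, for a log2 difference of 0.15 ± 0.068 (SE) at an adjusted p of 0.119. MITF was at 24.6, 26.95 and 25.2 CPM against 31.0, 29.6 and 28.8 CPM, a log2 difference of -0.20 ± 0.081 with an adjusted p of 0.0627. Compared with Cinnamon low, whose libraries held 160.0, 134.8 and 135.7 CPM, TFE3 was called higher by 0.27 ± 0.068 (adjusted p = 0.00346).

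Of the nutrient-sensing regulators RRAGD, RRAGC and FLCN rose with Cinnamon high. RRAGD (chr6:89364636-89412270, minus strand) was at 2.07, 2.23 and 1.55 CPM with Cinnamon high and at 0.576, 0.363 and 0.367 CPM with vehicle. It is the rarest member, and all treated libraries lay above all vehicle libraries. Its log2 change was 2.16 ± 0.28 (adjusted p = 6.6e-08). RRAGC (chr1:38838198-38859823, minus strand) was at 92.6, 92.3 and 90.1 CPM against 53.4, 54.1 and 54.1 CPM with vehicle. Both groups were tight and far apart, and the log2 change was 0.78 ± 0.086 (adjusted p = 2.19e-09). FLCN (chr17:17212212-17237188, minus strand), the GTPase-activating partner of both, was at 60.7, 48.6 and 42.5 CPM against 37.3, 38.4 and 39.6 CPM. It rose by 0.41 ± 0.072 (adjusted p = 2.5e-05), with a spread within the treated group that was wider than that of the vehicle. The value for FLCN was 0.26 without Cinnamon high replicate 1 and 0.52 without replicate 3, and it was called in both. FNIP1, the partner of FLCN, was at 64.5 ± 2.2 CPM (SD, n = 3) against 63.8 ± 0.94. FNIP2 was at 20.5 ± 1.5 against 18.2 to 19.5 CPM in the vehicle libraries, and neither gene was called. Annotated genes overlap FLCN (AC055811.2), FNIP1 (AC008695.1) and RRAGC (AL139260.2) on the same strand, so the counts of these members are uncertain.

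Among the membrane proteins, GPNMB, a glycoprotein that marks cells with loaded lysosomes, was at 51.2, 59.8 and 56.8 CPM with Cinnamon high and at 32.9, 31.6 and 31.9 CPM with vehicle. The groups did not overlap, and the log2 change was 0.81 ± 0.082 (adjusted p = 2.48e-10). NPC1 (chr18:23506184-23586898, minus strand), which moves cholesterol out of lysosomes, was at 254, 273 and 266 CPM against 159, 155 and 159 CPM. It rose by 0.76 ± 0.094 (adjusted p = 2.65e-08). MCOLN1, the calcium channel of the lysosomal membrane, was at 29.8, 29.9 and 27.8 CPM against 20.4, 20.9 and 21.7 CPM, a rise of 0.49 ± 0.15 (adjusted p = 0.0136). That call was lost without vehicle replicate 1 (0.47, adjusted p = 0.0504). The annotated gene PNPLA6 overlaps MCOLN1 on the same strand, so its counts are uncertain. LAMP1, a main glycoprotein of the membrane, was at 637, 599 and 552 CPM against 477, 498 and 495 CPM and rose by 0.30 ± 0.054 (adjusted p = 5.09e-05). LAMP2, which also serves as a receptor for chaperone-mediated autophagy, was at 434, 475 and 487 CPM against 407, 413 and 403 CPM. Its groups did not overlap, but the log2 difference of 0.21 ± 0.097 had an adjusted p of 0.124.

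In the lumen, CTSL (chr9:87725519-87731393, plus strand), a cysteine protease, was at 263, 285 and 265 CPM with Cinnamon high and at 174, 169 and 160 CPM with vehicle. The log2 change was 0.71 ± 0.047 (adjusted p = 1.93e-15), the smallest p among the members in this comparison. NEU1 (chr6:31857659-31862906, minus strand), which removes sialic acid, was at 216, 207 and 209 CPM against 135, 138 and 136 CPM. It rose by 0.64 ± 0.079 (adjusted p = 3.35e-08). GLA, the galactosidase that is deficient in Fabry disease, was at 86.9, 87.1 and 84.9 CPM against 56.4, 57.3 and 62.3 CPM and rose by 0.57 ± 0.093 (adjusted p = 8.72e-06). An annotated gene on the other strand, RPL36A-HNRNPH2, overlaps GLA. Other members have such overlaps too, among them FLCN (MPRIP), NPC1 (RMC1), NPC2 (ISCA2), CTSA (PLTP), MAP1LC3B (FBXO31), WIPI1 (ARSG) and VMP1 (PTRH2). The use of strand is not stated, so the counts of these members are uncertain as well.

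PSAP was at 751, 692 and 639 CPM with Cinnamon high and at 508, 524 and 527 CPM with vehicle, a rise of 0.43 ± 0.058 (adjusted p = 1.98e-07). TPP1, a peptidase that trims tripeptides, was at 186.0, 247 and 239 CPM against 177, 159.8 and 171 CPM. Replicate 1 lay close to the vehicle and the other 2 libraries well above it, and TPP1 rose by 0.42 ± 0.10 (adjusted p = 0.0024). The other called enzymes and carriers were NPC2, which hands cholesterol to NPC1, at 0.33, HEXA and CTSB at 0.31 each, CTSA at 0.22 and GLB1 at 0.18 on the log2 scale. The call for CTSA was lost without Cinnamon high replicate 2 (adjusted p = 0.0826), vehicle replicate 2 (0.0587) or vehicle replicate 3 (0.0657). With no filter on low counts together with no robust option in edgeR's fit it was lost too (0.074), as was that for GLB1 (0.231). HEXA is overlapped on its strand by AC009690.1, GLB1 by TMPPE and CTSD by AC068580.4. The 6 uncalled members of this role (CTSD, CTSF, CTSZ, GAA, GUSB and ARSA) differed by 0.05 to 0.26. Of these CTSD was at 341, 321 and 311 CPM against 278, 284 and 282 CPM, with an adjusted p of 0.157.

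Of the proton pump, which acidifies the lumen, the cytosolic subunits ATP6V1C1, ATP6V1H and ATP6V1A were called higher. ATP6V1C1 was at 112.4, 122.0 and 123.0 CPM with Cinnamon high against 93.2, 92.6 and 86.6 CPM with vehicle, a change of 0.41 ± 0.082 (adjusted p = 0.000226). ATP6V1H changed by 0.40 ± 0.089 (adjusted p = 0.000675) and ATP6V1A by 0.34 ± 0.12 (adjusted p = 0.0304). The call for ATP6V1A was lost without any vehicle library (adjusted p of 0.0521, 0.0703 and 0.0745), without Cinnamon high replicate 2 (0.0564) and without replicate 3 (0.11). The membrane subunit ATP6V0D1 was at 104 ± 5.1 CPM against 92.4 ± 1.7, and the accessory subunit ATP6AP1 at 335 ± 6.1 against 310.1 ± 6.2 (SD, n = 3), and these were not called.

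Of the autophagy genes, MAP1LC3B, the LC3 protein that coats autophagosome membranes, was at 133, 148 and 151 CPM with Cinnamon high and at 103, 107 and 103 CPM with vehicle. It rose by 0.48 ± 0.052 (adjusted p = 1.48e-09), although reads may be split between it and its near copy MAP1LC3B2. WIPI1, which binds the lipid of forming autophagosomes, was at 37.7, 44.9 and 39.9 CPM against 30.5, 29.8 and 31.7 CPM and rose by 0.43 ± 0.067 (adjusted p = 3.53e-06). GABARAP, GABARAPL1, UVRAG, ULK1 and VMP1 were not called, with log2 differences of -0.09 to 0.17. The annotated gene AC120057.2 overlaps GABARAP on the same strand. ULK1, the kinase that starts autophagy, was at 43.5, 42.8 and 39.1 CPM against 39.1, 42.3 and 41.04 CPM, so its groups overlapped.

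Summed markers of other cells, and those of the line itself, moved beside these genes. The summed level of 7 macrophage and microglia markers was 206 to 236 CPM with Cinnamon high and 167 to 179 CPM with vehicle, and CD68, itself a lysosomal glycoprotein, made up most of it with 89.3 to 229 CPM over all libraries. The defining markers AIF1 and TYROBP were at most 0.0406 and 0.0392 CPM in any library. The 6 melanocyte markers summed to 2.11 to 2.56 CPM with Cinnamon high and 3.47 to 5.19 CPM with vehicle. The 5 fibroblast genes summed to 4312 to 5049 CPM against 6455 to 6498 CPM. The 4 epithelial genes summed to 84.9 to 91.3 CPM against 244 to 246 CPM. Most of the epithelial sum was KRT18, with a mean of 225.8 CPM with vehicle. EPCAM and CDH1 were below 1 CPM in every library. The 10 astrocyte and glioma genes summed to 8155 to 8793 CPM against 9015 to 9288 CPM. Most of that sum was VIM and CD44, with means of 5903 and 2772 CPM with vehicle. The part of these shifts in the changes of the members was not tested.

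Within the dose series of Cinnamon, most calls were at the high dose. At the medium dose 2 of 41 members were called against vehicle, GABARAPL1 lower and VMP1 higher, where 2.29% of all genes were called, 1.12% higher and 1.16% lower. It was 3 higher and 2 lower without Sagunja low replicate 1 (7.43% of all genes called), and 4 members without Cinnamon medium replicate 1 (2.46%). At the low dose VMP1 was the only member called, where 1.06% of all genes were, with 0.674% higher. The high dose against the low dose gave 25 members higher and 1 lower (21.6% of all genes called), with a median of 0.28, and 32 of 41 members without overlap against 41.5% of genes. These counts were 33 and 2 without Sagunja low replicate 1, where 35.9% of all genes were called. Of the 26 calls 19 held in all alternatives run. RRAGC was at 52.7, 61.4 and 61.3 CPM at the low dose and 56.0, 65.5 and 69.3 CPM at the medium dose, both short of the 90.1 CPM of the lowest library at the high dose. NPC1 was at 147, 152 and 146 CPM at the low dose and 142, 141 and 143 CPM at the medium dose, and CTSL at 169, 173 and 184 and then 177, 189 and 191 CPM. For GPNMB, NEU1 and MAP1LC3B too, every library at the low and medium doses lay below every library at the high dose. GABARAPL1 was at 18.5, 17.7 and 17.3 CPM at the medium dose against 21.8, 22.1 and 21.1 CPM with vehicle, a log2 change of -0.27 ± 0.066 (adjusted p = 0.0144), and its reads may be shared with GABARAPL3. That call was lost without replicate 2 or 3 of Cinnamon medium (adjusted p of 0.0716 and 0.0928) and without replicate 1 or 2 of vehicle (0.0691 and 0.0833).

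**Figure D2:**
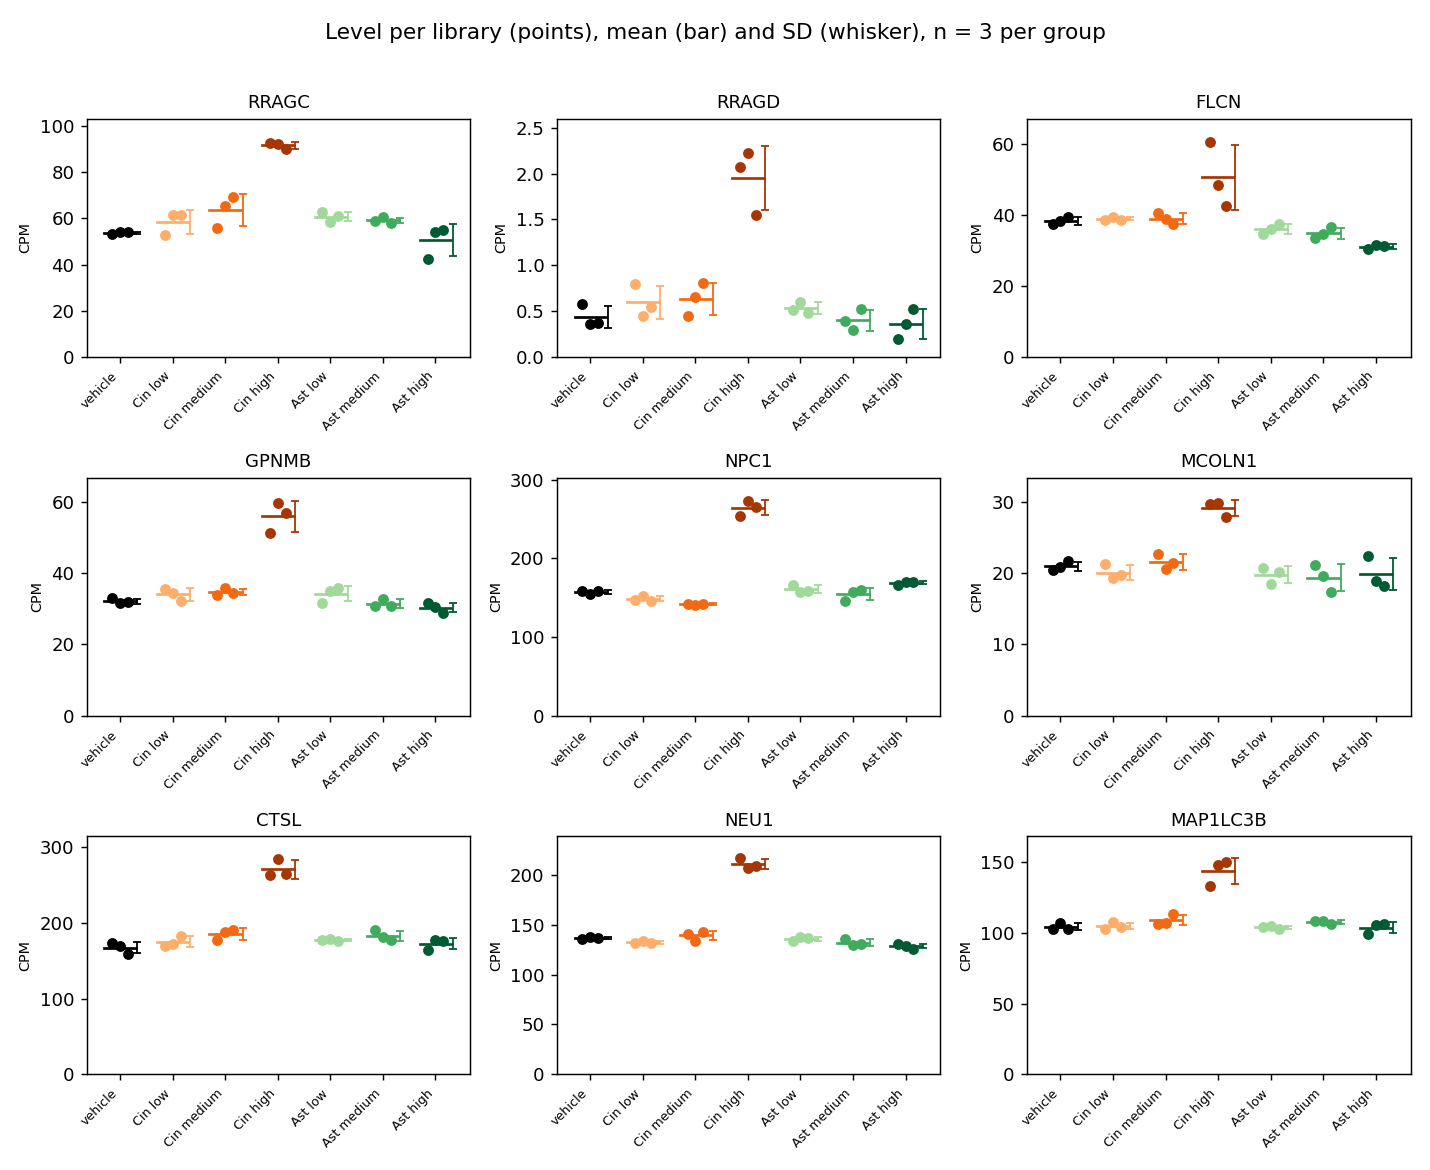
Level of 9 members in CPM (y axis) in each of the 3 libraries of vehicle and of each dose of Cinnamon (Cin) and Astragalus (Ast), as points, with the group mean as a bar and the SD as a whisker. In all 9 panels the Cinnamon high libraries are the highest, and for RRAGC they lie between 90.1 and 92.6 CPM against 53.4 to 54.1 CPM for vehicle.

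Astragalus, whose libraries carry the same set code as those of Cinnamon, showed no such rise at the same dose. Against vehicle, 1 of 41 members was higher (VMP1) and 1 lower (FLCN) with Astragalus high, where 4.45% of all genes were called, 2.39% higher and 2.07% lower. FLCN was at 30.4, 31.7 and 31.3 CPM against 37.3, 38.4 and 39.6 CPM with vehicle, a log2 change of -0.30 ± 0.073 (adjusted p = 0.0101). No Astragalus high library reached the vehicle range. With library size alone for scaling the change was -0.25 with an adjusted p of 0.0554, and without vehicle replicate 3 it was -0.27 with 0.0662. VMP1 was the only member called at the medium and the low dose, where 3.94% and 3.67% of all genes were called, 1.79% and 1.64% higher and 2.15% and 2.03% lower. Without Sagunja low replicate 1 the counts at the high, medium and low dose were 7, 8 and 5 members, where 12.7%, 13.9% and 14.1% of all genes were called. With only the compared groups in the fit they were 5, 10 and 13 members (5.51%, 19.3% and 26.5% of all genes).

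In the direct comparison of Cinnamon high with Astragalus high, 30 members were higher and 2 lower with Cinnamon (27.6% of all genes called). RRAGC differed by 0.86 ± 0.086, GPNMB by 0.89 ± 0.082, FLCN by 0.71 ± 0.072, NEU1 by 0.72 ± 0.080 and CTSL by 0.65 ± 0.047 on the log2 scale, with edgeR's adjusted p for NEU1, at 1.63e-09, the highest of these 5. All 5 pump subunits were higher with Cinnamon, from 0.19 for ATP6AP1 to 0.42 for ATP6V1H, although the call for ATP6AP1 was lost without any compared library but Astragalus high replicate 1 (adjusted p of 0.0579 to 0.117). That for ATP6V1A was lost without either replicate 1 or 2 of Astragalus high or replicate 2 or 3 of Cinnamon high (0.0507 to 0.178) and with library size alone (0.0651), and that for ATP6V0D1 without Astragalus high replicate 2 (0.0521). Of the 32 calls 21 held in all alternatives run. MITF was lower with Cinnamon by 0.26 on the log2 scale, at 25.6 ± 1.2 CPM against 30.8 ± 1.4 (SD, n = 3). That call was lost without Cinnamon high replicate 1 (adjusted p = 0.0623) and with no filter on low counts and no robust option (0.0753). VMP1 was lower too, by 0.52 on the log2 scale. The test of the difference between the dose effects of both extracts (high minus low) called 19 members higher and 1 lower for Cinnamon, where 14.4% of all genes were called, 6.73% higher and 7.67% lower. Leaving out Sagunja low replicate 1 gave 32 higher and 3 lower, where 27.8% of all genes were called. The largest values were 2.27 ± 0.42 for RRAGD, 0.92 ± 0.12 for RRAGC and 0.90 ± 0.12 for GPNMB.

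**Figure D3:**
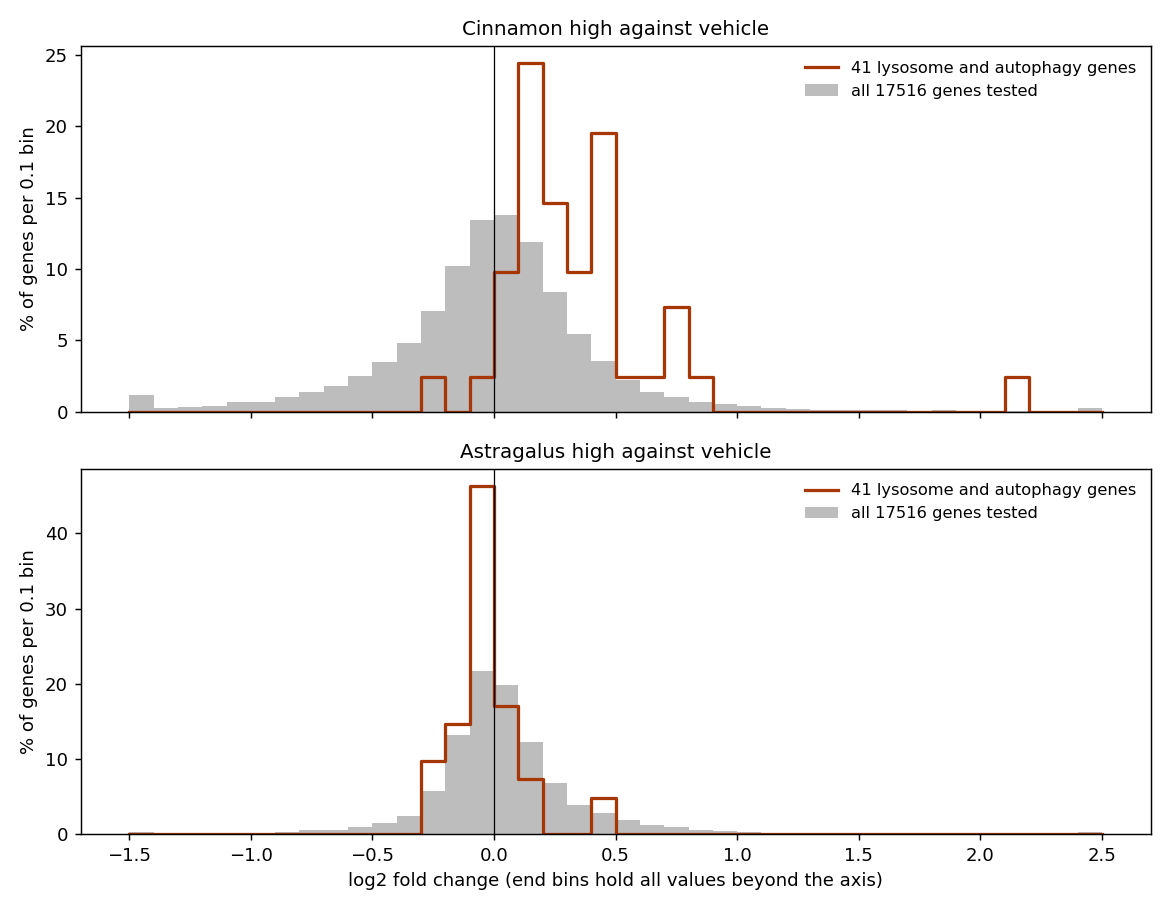
Share of genes (y axis, % per bin of 0.1) by log2 fold change against vehicle (x axis) for Cinnamon high (top) and Astragalus high (bottom), with grey bars for all 17516 genes tested and a line for the 41 members. With Cinnamon the line is shifted to the right of the bars, with a median of 0.26 against 0.005, and with Astragalus it has a median of -0.06 against 0.008.

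VMP1 (chr17:59707192-59842255, plus strand), a membrane protein of the endoplasmic reticulum that is needed to form autophagosomes, had a pattern of its own. It was called higher than vehicle in 17 of 18 comparisons, in every replicated extract group except Cinnamon high. The vehicle libraries held 304.8, 316.9 and 304.9 CPM. Cinnamon high held 275, 291 and 296 CPM, below the vehicle range but not called (log2 difference -0.09 ± 0.055, adjusted p = 0.268). All other extract libraries, single ones included, held between 354 and 449 CPM, so none overlapped the vehicle. The log2 change ran from 0.26 ± 0.055 with Cnidium low (adjusted p = 0.0174) to 0.51 ± 0.055 with Astragalus medium (adjusted p = 6.83e-08). The call with Cnidium low was lost without replicate 2 or 3 of that group (adjusted p of 0.0906 and 0.12) and without vehicle replicate 1 or 3 (0.0983 and 0.0744). With no filter on low counts and no robust option the calls with Cnidium medium and low and Rehmannia medium and low were lost (0.0867, 0.293, 0.084 and 0.0835). With only Sagunja low and vehicle in the fit the call with Sagunja low was lost (0.747). Against Cinnamon low, at 354, 396 and 390.1 CPM, Cinnamon high was lower by 0.40 on the log2 scale (SE 0.055, adjusted p = 3.68e-07). As the vehicle has its own set code, a difference between that set and the others and an effect of the extracts on VMP1 cannot be told apart in comparisons with vehicle, but the comparison of Cinnamon doses does not use the vehicle.

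**Figure D4:**
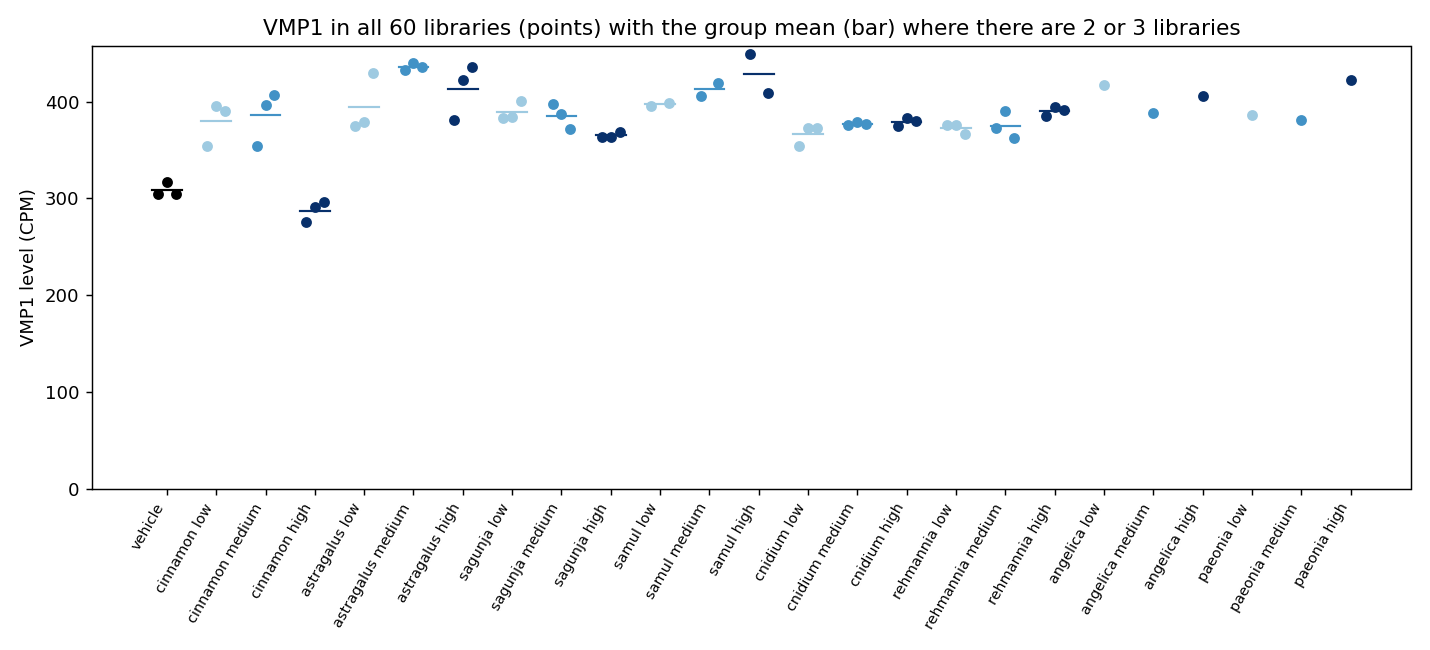
VMP1 level in CPM (y axis) in all 60 libraries (points) by group (x axis), coloured by dose, with a bar for the mean of groups of 2 or 3 libraries. The vehicle and Cinnamon high points lie at 275 to 317 CPM, and all other points lie at 354 CPM or above.

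Sagunja-tang gave smaller and mixed changes. With Sagunja high 3 of 41 members were higher (RRAGC, GLA and VMP1) and 3 lower (CTSA, CTSD and ULK1), where 17.1% of all genes were called, 8.94% higher and 8.11% lower. RRAGC was at 63.5, 67.6 and 64.0 CPM against 53.4, 54.1 and 54.1 CPM with vehicle, a rise of 0.29 ± 0.086 (adjusted p = 0.017), and all 3 libraries lay above the vehicle range. GLA was at 70.5, 75.8 and 69.9 CPM against 56.4, 57.3 and 62.3 CPM and rose by 0.31 ± 0.094 (adjusted p = 0.0165). CTSD was at 210.4, 219 and 213 CPM against 278, 284 and 282 CPM and fell by 0.38 on the log2 scale (SE 0.11, adjusted p = 0.0145). These 3 calls were each lost when 1 library was left out: RRAGC without Sagunja high replicate 2 (adjusted p = 0.0784) or vehicle replicate 1 (0.0554), GLA without those (0.0838 and 0.0761) or vehicle replicate 2 (0.0611), and CTSD without Sagunja high replicate 1 (0.0508). CTSA, which protects NEU1 and GLB1 in the lumen, fell by 0.20 (SE 0.071, adjusted p = 0.0423), and that call was lost without any 1 of the 6 compared libraries (adjusted p of 0.0782 to 0.134). ULK1 was at 30.8, 33.6 and 34.9 CPM against 39.1, 42.3 and 41.04 CPM. It fell by 0.29 on the log2 scale (SE 0.073, adjusted p = 0.00429), and at the medium dose by 0.24 (SE 0.073, adjusted p = 0.0358). The call at the medium dose was lost without replicate 2 or 3 of that dose (adjusted p of 0.149 and 0.115) and without any vehicle library (0.0573, 0.143 and 0.109). Without Sagunja low replicate 1 the counts for Sagunja high were 4 higher and 7 lower (30.9% of all genes called), and with only the compared groups in the fit 5 higher and 10 lower (41.1%). At the medium dose 1 member was higher (VMP1) and 1 lower (ULK1), where 6.32% of all genes were called (3.51% higher, 2.81% lower), and without that library 4 were higher and 5 lower (17.6% of all genes called).

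Sagunja low called 11 members higher and 2 lower against vehicle, where 22.1% of all genes were called, 13.6% higher and 8.45% lower. Of these 13 calls 10 were lost without replicate 1, the library that stood apart, and those of FNIP1, RRAGC and VMP1 held (-0.21, 0.27 and 0.34, adjusted p of 0.0142, 0.0193 and 3.61e-05). GABARAP, which like LC3 is joined to autophagosome membranes, was at 493 CPM in it and at 190.5 and 174 CPM in the other 2 libraries, against 193 to 204 CPM with vehicle. TFEB was at 27.4 CPM in it and at 12.2 and 11.01 CPM in the others, and MCOLN1 at 40.5 against 18.6 and 18.0 CPM. NPC1 was at 91.8 CPM in it against 160.3 and 158 CPM, FNIP1 at 22.5 against 54.7 and 55.4 CPM, and LAMP2 at 253 against 445 and 441 CPM. In this library these members lay far from the vehicle in both directions, while the other 2 libraries lay closer. In all, 3 members were called higher and 3 lower with Sagunja low without it (11.4% of all genes called). With only Sagunja low and vehicle in the fit, replicate 1 included, edgeR called 0 members and 0 of all genes, with 2 members at an unadjusted p under 0.05, as for 5.62% of all genes. DESeq2 over all groups called 16 members, and the share of all genes it called is not given here. The comparison of Sagunja high with low called 2 members higher and 11 lower (20.5% of all genes called). Without that library edgeR called 0, with 4 members at an unadjusted p under 0.05, as for 16.8% of all genes.

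**Figure D5:**
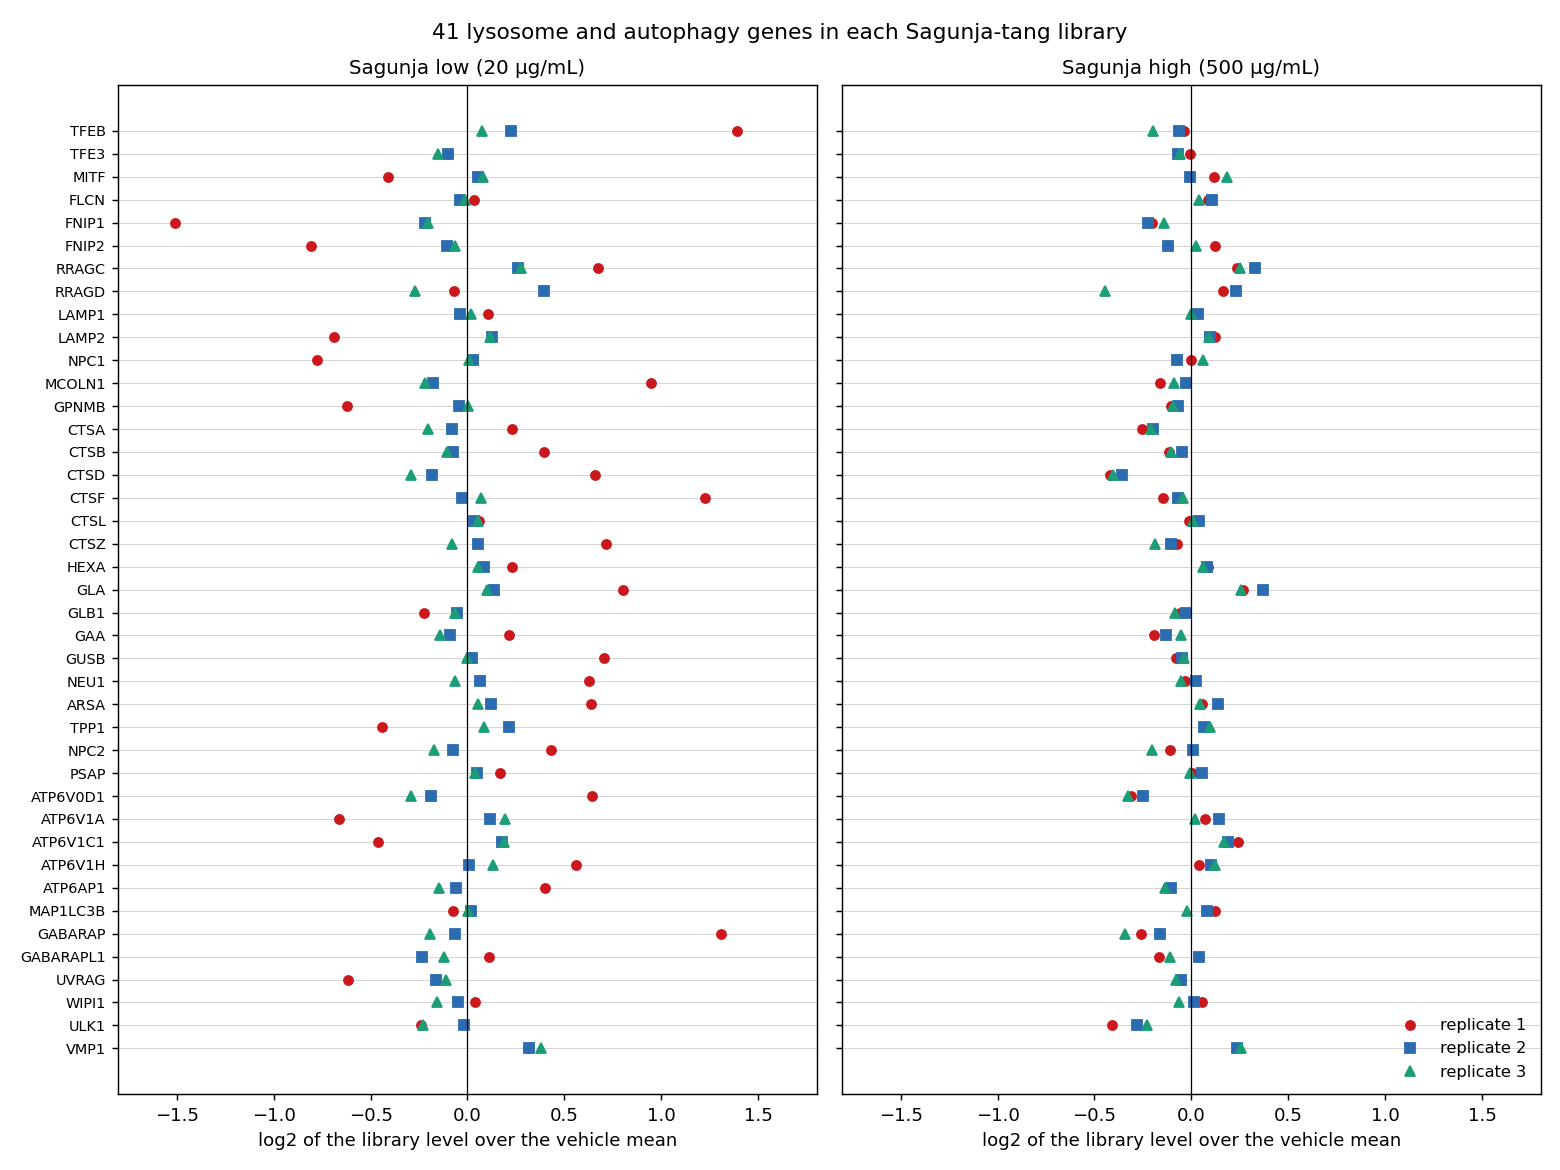
Log2 of the level in each Sagunja library over the vehicle mean (x axis) for the 41 members (y axis), at the low dose (left) and the high dose (right), with a symbol for each replicate. The red points of replicate 1 at the low dose scatter widely, as for TFEB at 27.4 CPM against 12.2 and 11.01 CPM in replicates 2 and 3, which lie nearer 0.

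Few members were called with the remaining extracts in the fit over all groups. Samul high (n = 2) called VMP1 and CTSL higher and FLCN lower, where 4.13% of all genes were called, 2.28% higher and 1.85% lower. CTSL was at 186 and 191 CPM against 174, 169 and 160 CPM with vehicle and rose by 0.18 ± 0.052 (adjusted p = 0.0353). FLCN was at 31.1 and 31.8 CPM against 37.3, 38.4 and 39.6 CPM and fell by 0.27 on the log2 scale (SE 0.081, adjusted p = 0.0428). Without Samul high replicate 1 or 2 the adjusted p was 0.169 and 0.189 for CTSL and 0.303 and 0.14 for FLCN, so both calls were lost. They were also lost without vehicle replicate 2 or 3 (0.0691 and 0.185 for CTSL, 0.0985 and 0.141 for FLCN), and that for FLCN without vehicle replicate 1 (0.0753) and with library size alone (-0.21, adjusted p = 0.175). Samul medium and low each called VMP1 alone, where 1.75% and 2.62% of all genes were called, 0.908% and 1.4% higher. Cnidium and Rehmannia likewise called VMP1 and no other member at any dose. The share of all genes called was 1.35%, 0.297% and 0.383% for the high, medium and low dose of Cnidium and 2.37%, 0.714% and 0.993% for those of Rehmannia. At the high dose 0.851% were higher and 0.502% lower with Cnidium, and 1.37% higher and 0.999% lower with Rehmannia. Without Sagunja low replicate 1 the counts were 8, 4 and 6 members for the high, medium and low dose of Samul (13.4%, 11.3% and 13.2% of all genes called), 5 for Cnidium high (5.57%), 3 for Rehmannia high (7.65%) and 4 for Rehmannia low (3.64%). With only the compared groups in the fit the counts were larger. They were 16, 2 and 3 members for the high, medium and low dose of Cnidium (14.6%, 5.31% and 4.43% of all genes called), 8, 3 and 4 for Rehmannia (15.5%, 11.3% and 8.04%), and 8, 16 and 13 for Samul (13.8%, 29.1% and 31.0%). For Cnidium high 13 of the 16 were lower.

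Some comparisons called no member. In edgeR's test 0 members differed between the high and the low dose of Astragalus (0.28% of all genes called), Cnidium (0.228%), Rehmannia (0.805%) and Samul (0.736%), and 0 by DESeq2 in each of these. At an unadjusted p under 0.05 there were 4 members for Astragalus, 2 for Cnidium, 2 for Rehmannia and 3 for Samul, where 6.58%, 5.4%, 8.34% and 6.59% of all genes were. Leaving out Sagunja low replicate 1 gave 11, 8, 14 and 7 members at that unadjusted p (12.3%, 9.91%, 14.8% and 11.8% of all genes), and 1, 1, 2 and 1 members were then called, all lower (1.16%, 0.957%, 3.51% and 1.92% of all genes called). With only the compared groups in the fit edgeR called 2 members for Cnidium and 4 for Rehmannia, all lower (2.13% and 5.07% of all genes called). Cnidium high and Rehmannia high, which share a set code, differed in 0 members by edgeR (0.263% of all genes called) and 0 by DESeq2. The number at an unadjusted p under 0.05 was 0, where 4.56% of all genes were. The last number rose to 7 members without Sagunja low replicate 1 (8.05% of all genes) and to 8 with only the compared groups in the fit (11.7%), with 0 called in both. The difference between their dose effects likewise called 0 members by edgeR (0.04% of all genes), 0 by DESeq2 and 0 at an unadjusted p under 0.05, against 1 at that p without Sagunja low replicate 1 (5.2% of all genes) and 3 with only the compared groups (7.67%).

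Sagunja high against Samul high called 2 members higher (FLCN and MITF) and 2 lower (ULK1 and VMP1), where 8.36% of all genes were called. FLCN was at 40.8, 41.4 and 39.5 CPM with Sagunja and at 31.1 and 31.8 CPM with Samul, a difference of 0.37 ± 0.081 (adjusted p = 0.00158). MITF was at 32.2, 29.7 and 33.8 CPM against 27.3 and 25.0 CPM, a difference of 0.29 ± 0.090 (adjusted p = 0.0343). The groups of both genes did not overlap, but the call for MITF was lost without Sagunja high replicate 1 or 3 (adjusted p of 0.0869 and 0.141) and without either Samul library (0.0644 and 0.403). ULK1 was lower with Sagunja by 0.28 on the log2 scale, a call lost without Sagunja high replicate 1 (0.133) or Samul high replicate 2 (0.748), and VMP1 by 0.23, lost without Samul high replicate 1 (0.222). With no filter on low counts and no robust option FLCN alone was called, with adjusted p of 0.196, 0.151 and 0.196 for MITF, ULK1 and VMP1. With library size alone for scaling the split was 1 higher and 3 lower, and without Sagunja low replicate 1 it was 5 and 3 (17.6% of all genes called).

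For Angelica and Paeonia there was 1 library at each dose, so there is no replicate check and no test. Ratios are log2 of CPM + 1 over the vehicle mean, for the 40 members with a mean of at least 1 CPM. No member passed 1.5-fold in any of the 6 libraries, where 0.439% to 1.58% of the genes did. The members lay between -0.35 and 0.39 in Angelica high and between -0.43 and 0.45 in Paeonia high, with medians of -0.09 and -0.04. The 4 libraries of the lower doses had medians of -0.04 to 0.01.

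Over all 18 comparisons with vehicle, 34 members were called at least once and 7 never (TFE3, MITF, FNIP2, LAMP2, GAA, ATP6V0D1 and ATP6AP1), where 46.4% of all genes were called at least once. It was 39 members and 60.5% of all genes without Sagunja low replicate 1. Sagunja low was the only comparison for 8 of the 34 (TFEB, FNIP1, CTSF, CTSZ, GUSB, ARSA, GABARAP and UVRAG), and of these calls that of FNIP1 alone held without its replicate 1. For 15 members Cinnamon high was the only comparison that called them. The shares of all genes called only with Sagunja low or only with Cinnamon high were not counted. Sagunja low called 22.1% and Cinnamon high 22.8% of all genes, so neither count can be read as particular to the members. RRAGC and GLA were called higher in 3 comparisons each, Cinnamon high, Sagunja high and Sagunja low, although the call of GLA with Sagunja low was lost without its replicate 1 (adjusted p = 0.206). FLCN was called higher in 1 and lower in 2.

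A wider list of 117 further genes of the same systems, none of them a member, was read in the same fit. This list too was chosen with earlier results of these data known, so its counts are no independent check. With Cinnamon high 51 of the 117 were higher and 2 lower than vehicle, with a median log2 change of 0.17, where 11.8% of all genes were called higher and 10.9% lower. Without Sagunja low replicate 1 the counts were 68 and 4 (35.9% of all genes called). Higher were 12 of 26 hydrolases and their activators, 11 of 15 membrane and sorting genes, 7 of 12 pump genes, 8 of 35 autophagy genes, 8 of 22 mTORC1 and amino acid sensing genes and 5 of 7 genes of the response to lysosomal damage. SQSTM1, the receptor p62 that carries tagged cargo into autophagosomes, rose from 545.8 ± 5.0 to 1675 ± 63 CPM (SD, n = 3 each), a log2 change of 1.63 ± 0.073 (adjusted p = 3.8e-21). TRIM16, which acts at damaged lysosomes, changed by 0.94 ± 0.059, and SLC17A5, the exporter of sialic acid freed by NEU1, by 0.82 ± 0.084. RB1CC1, a subunit of the ULK1 complex, was lower by 0.26 and TSC2, a brake on mTORC1, by 0.22 on the log2 scale. Against Cinnamon low 49 were higher and 3 lower, where 10.3% and 11.2% of all genes were.

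With Sagunja high 17 of these 117 genes were higher and 10 lower, with a median of 0.05, where 8.94% of all genes were higher and 8.11% lower. The counts were 25 and 20 when Sagunja low replicate 1 was left out (30.9% of all genes called). CTSS, a cysteine protease of antigen-presenting cells, rose from 3.73 ± 0.27 to 14.6 ± 0.66 CPM, a log2 change of 1.98 ± 0.13 (adjusted p = 9.51e-16). SQSTM1 rose by 0.74 ± 0.072 and the autophagy receptor OPTN by 0.59 ± 0.095. The mTORC1 and amino acid sensing genes made up 5 of the 10 lower genes, among them SESN3 by 0.57, AKT1S1 by 0.46 and NPRL3 by 0.44 on the log2 scale. The other high doses called few of the wider list: 1 higher and 3 lower with Astragalus, 1 and 0 with Cnidium, 2 and 2 with Rehmannia, and 2 and 2 with Samul, where 4.45%, 1.35%, 2.37% and 4.13% of all genes were called. With Sagunja low replicate 1 left out these were 4 and 11, 5 and 4, 3 and 7, and 7 and 9 (12.7%, 5.57%, 7.65% and 13.4% of all genes). DDIT4, an inhibitor of mTORC1, was higher with Astragalus high (0.47 ± 0.091), Cnidium high (0.50 ± 0.091) and Sagunja high (0.29 ± 0.091), and SQSTM1 was lower by 0.31 and AMBRA1, a regulator of ULK1, by 0.28 with Astragalus high. With Rehmannia high IDUA, a hydrolase of glycosaminoglycans, was higher by 0.66 ± 0.16 and the lipid transfer protein ATG2A by 0.31 ± 0.073. With Samul high ATG16L1 and ATG4A, both of the LC3 conjugation system, were higher by 0.28 ± 0.077 and 0.25 ± 0.074, and SESN2 was lower by 0.30 on the log2 scale.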

How the data were processed

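RNA of SW1783 cells was sequenced with a directional mRNA kit, 60 libraries in all, per the labels' protocols. The submitters' processing notes name FastQC 0.11.9, Trim Galore 0.6.5, STAR 2.7.3a, RSEM 1.3.3 and GRCh38. For the annotation release and the use of strand, nothing is stated in the sources used here, so antisense overlaps cannot be resolved. The deposited values are RSEM expected counts of 60675 genes, not normalized by the authors. The table holds 219 further columns, not used here. Expected counts were rounded to whole numbers (90.67% were whole already). Totals ran from 20604792 to 29609799 per library, with 22791 to 24044 genes counted.

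The 54 libraries of the 19 groups with at least 2 libraries were fitted together with edgeR 4.0.16 in R 4.3.3 (limma 3.58.1): filterByExpr, TMM factors (0.936 to 1.028), robust quasi-likelihood fit, 35 residual degrees of freedom, biological coefficient of variation 0.095. P-values were adjusted over 17516 genes in each of 30 comparisons. SE is the standard error of the log2 change. Levels are CPM scaled by TMM over all 60 libraries, and levels per kb use the exon union of GENCODE 29, which also gave gene positions on GRCh38. Single libraries were read as log2 of CPM + 1 against the vehicle mean. The fit was tested on simulated counts. Promoters were searched in Python 3.11.15. The main tables used pandas 2.3.3 and the plots matplotlib 3.10.9.

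The 41 genes, the wider list of 117 genes and the markers were chosen with earlier results of these data known. All 117 were found and passed the filter. Any member may be named, and from the wider list, for each high dose against vehicle, the 3 genes in each direction with the largest called change and at least 1 CPM in the higher group. Alternatives were DESeq2 1.42.0, its size factors, library size alone, no filter together with no robust option, only the compared groups, a replicate block, and each library left out. Replicate numbers did not pair the samples in most comparisons: over 9817 genes, correlations of same-numbered deviations lay between -0.39 and 0.45. They exceeded 0.1 in every pair of Sagunja medium against vehicle, Rehmannia high against vehicle and Astragalus high against low, where the block left the counts at 2, 1 and 0. The vehicle is given as 0.1% DMSO in the sample labels and differently in the series description, and no source used here names the solvent of the extracts.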

Additional observations from a re-analysis of the deposited data

Results flagged for a closer look

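The dose effect (high minus low) of Cinnamon differed from that of Astragalus in 20 members, by edgeR's test of the difference itself, where 14.4% of all genes were called. Without Sagunja low replicate 1 it was 35 members and 27.8% of all genes. Of the 20 calls 17 held in all alternatives run, and those of GLB1, GABARAPL1 and ATP6V1C1 did not. The log2 differences were 2.27 for RRAGD, 0.92 for RRAGC and 0.60 for FLCN among the nutrient-sensing regulators. Among the membrane proteins they were 0.90 for GPNMB, 0.77 for NPC1 and 0.37 for LAMP1. In the lumen they were 0.76 for NEU1, 0.67 for CTSL, 0.57 for PSAP, 0.53 for GLA, 0.53 for NPC2, 0.44 for CTSB, 0.37 for HEXA and 0.22 for GLB1. For the pump they were 0.48 for ATP6V1H and 0.40 for ATP6V1C1, and for autophagy genes 0.51 for WIPI1, 0.46 for MAP1LC3B, 0.35 for GABARAPL1 and -0.46 for VMP1.

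The dose effect of Sagunja differed from that of Samul in 1 member, NPC1, by 0.52 (adjusted p = 0.0431), where 2.89% of all genes were called. That call was lost without Sagunja high replicate 1 or 3, without any of the 4 Samul libraries of these doses (adjusted p of 0.0739 to 0.178), with library size alone (0.0783) and with only the compared groups in the fit (0.869). It held without Sagunja low replicate 1, at 0.30 (adjusted p = 0.00901), and without replicate 3 of that group 17 members were called (22.4% of all genes). NPC1 was at 91.8 CPM in Sagunja low replicate 1 and at 160.3 and 158 CPM in the other 2 libraries of that group.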

How the results depend on the processing

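The values are counts of the 41 members called by edgeR's test unless another tool is named. The share of all genes called moved with the setting too. Over the comparisons with vehicle, 46.4% of all genes were called at least once with all libraries and 60.5% without Sagunja low replicate 1. Counts in this section that lack such a share show how calls depend on the setting and are no result about the members. With DESeq2, its size factors, library size alone, no filter and no robust option, only the compared groups or the replicate block, Cinnamon high against vehicle, against Cinnamon low and against Astragalus high, and the difference of their dose effects, stayed within 1.5 times of their counts. Of the 22 calls with Cinnamon high 18 held in all 13 alternatives run. When the fit held only the compared groups, Cinnamon medium called 4, Astragalus 5, 10 and 13 (high, medium, low), Sagunja 15, 8 and 0, Cnidium 16, 2 and 3, Rehmannia 8, 3 and 4, and Samul 8, 16 and 13 against vehicle. In the same setting Sagunja high against low called 0, Cnidium high against low 2, Rehmannia high against low 4, and the dose effect of Sagunja minus that of Samul 0. These fits hold fewer samples, and Sagunja low replicate 1 enters only those of its own group. Sagunja high against low had 0 members at an unadjusted p under 0.05 there and 13 calls by DESeq2 over all groups, and the dose effect difference 1 and 1. With no filter, together with no robust option and chosen after the data were seen, Cinnamon medium called 1, Sagunja medium 1, Cnidium medium and low 0 each, Rehmannia medium and low 0 each, Samul high 1, Sagunja against Samul high 1 and their dose effect difference 6. Library size alone gave 2 for Astragalus medium and 0 for the dose effect of Sagunja minus Samul, and DESeq2 gave 3 for Astragalus medium (the cause was not tested).

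Leaving out 1 library at a time, Sagunja low replicate 1 included, the counts against vehicle ranged from 20 to 31 for Cinnamon high, 1 to 5 for Cinnamon medium, 1 to 7, 1 to 8 and 1 to 5 for Astragalus high, medium and low, 3 to 11, 1 to 9 and 6 to 24 for Sagunja, 1 to 5 for Cnidium high, 0 to 1 for Cnidium low, 1 to 3 for Rehmannia high, 1 to 4 for Rehmannia low, and 1 to 8, 1 to 4 and 1 to 6 for Samul. High against low ranged from 23 to 35 for Cinnamon, 0 to 22 for Sagunja, 0 to 1 for Astragalus, 0 to 1 for Cnidium, 0 to 2 for Rehmannia and 0 to 1 for Samul. Cinnamon against Astragalus high ranged from 26 to 38, Sagunja against Samul high from 2 to 8, and the dose effect differences from 19 to 35 and from 0 to 17. Where a group was left with 1 library, that library was taken to vary like the other groups. Leaving out compared libraries, the log2 change with Sagunja low ranged from -0.0123 to 0.4319 for CTSZ, -0.0002 to 0.3854 for NEU1 and -0.1281 to 0.79 for GABARAP, and that of CTSB for Sagunja high against low from -0.2647 to 0.0029, and in all 4 the sign turned without Sagunja low replicate 1.

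The replicate block gave 23 for Cinnamon high, 3 for Cinnamon medium, 14 for Sagunja low, 27 for Cinnamon high against low, 31 for Cinnamon against Astragalus high and 21 for the difference of their dose effects. Pairing within a code set gave 12 for Sagunja high against low and 3 for Sagunja against Samul high, and it ended the call of TPP1 in Cinnamon high against low (adjusted p = 0.0629). The median SE of the members, 0.0825 with Cinnamon high, limits which small changes are called.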

Other observations

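BNIP3 and BNIP3L, receptors that mark mitochondria for autophagy, and the stress-induced mTORC1 inhibitors DDIT4 and SESN2 belong to the wider list and were singled out after their values were seen. With Cinnamon high BNIP3 was at 194 ± 9.0 CPM against 119.9 ± 1.4 CPM with vehicle (SD, n = 3 each), a log2 change of 0.71 ± 0.054 (SE, edgeR adjusted p = 1.12e-13). BNIP3L, DDIT4 and SESN2 rose there too, by 0.45, 0.60 and 0.46. BNIP3 fell by 0.39 with Astragalus high, by 0.66 with Rehmannia high and by 0.59 with Samul high on the log2 scale. SESN2 fell by 0.30 with Samul high, and BNIP3L by 0.20 with Rehmannia high, while DDIT4 was called higher with Astragalus high, Cnidium high and Sagunja high.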
